A study of Mus musculus with 3 samples.

Results

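The miRNA hairpins described here are Mir493, Mir337, Mir540, Mir665, Mir431, Mir433, Mir127, Mir434, Mir136 and Mir370, which lie on the plus strand of mouse chromosome 12 within the 45 kb interval chr12:110815000-110860000 (mm9). Members were chosen by position: reads were taken when their 5′ end mapped to the plus strand of this interval. Member totals sum the reads at the 10 named hairpins only. The interval holds 15 RefSeq hairpins, of which 10 are the members, and 177 RefSeq hairpins could be placed by sequence in the whole data set. The group carries the name of its antisense gene, Rtl1, and this was checked against the Rtl1 transcript: the hairpins of Mir431, Mir433, Mir127, Mir434 and Mir136 were fully complementary to the Rtl1 mRNA, whereas those of Mir493, Mir337, Mir540, Mir665 and Mir370 were not. The antisense label therefore held for 5 of 10 members, and the other 5 are neighbours on the same strand.

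All 3 libraries were replicates of a single group: small RNA of MIN6 cells, a mouse insulinoma line of beta cell origin, grown in medium with 25 mM glucose. MIN6 is a transformed line derived from a tumour of transgenic mice, not a primary islet preparation. There was no second condition, so the comparisons below are between members, between arms of a hairpin and between 5′ starts, each with its spread over the 3 libraries, and no test between conditions was possible. The paper describes the 3 libraries as biological replicates, and nothing in the labels ties a library to a particular culture.

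The Dlk1-Dio3 region on mouse chromosome 12 is imprinted. Protein-coding genes such as Dlk1 and Rtl1, a gene derived from a retrotransposon, are expressed from the paternal chromosome, and long non-coding transcripts that carry many miRNA hairpins are expressed from the maternal chromosome. The hairpins that lie opposite the Rtl1 coding sequence give miRNAs that pair with Rtl1 mRNA along their full length, a setting in which Argonaute 2 can cut the target. A hairpin yields a miRNA from each arm, 5p and 3p, and the seed, bases 2 to 8 from the 5′ end, directs most pairing to other targets. A change of 5′ end therefore changes the seed, and a miRNA that starts upstream or downstream of the RefSeq start is called a 5′-shifted isomiR here: miR-136-3p-1 starts 1 base upstream of the 5′-reference miRNA, and miR-127-5p+2 starts 2 bases downstream.

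The mature miRNAs on which the results turn are printed 5′ to 3′ with the seed in capitals, together with the 5′-shifted isomiRs that were frequent beside them, because their seeds are what distinguishes them. RefSeq sequences are given for the reference starts, and the first 22 bases at the shifted start for the isomiRs. The first set comes from the 3 hairpins with a shifted start discussed at length.
miR-127-3p: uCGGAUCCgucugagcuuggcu
miR-127-3p-1: aUCGGAUCcgucugagcuuggc
miR-127-5p: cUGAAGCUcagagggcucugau
miR-127-5p+2: gAAGCUCAgagggcucugauuc
miR-136-3p: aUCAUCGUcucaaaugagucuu
miR-136-3p-1: cAUCAUCGucucaaaugagucu
miR-136-5p: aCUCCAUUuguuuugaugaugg
miR-136-5p-3: aGGACUCCauuuguuuugauga
miR-434-5p: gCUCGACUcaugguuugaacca
miR-434-5p-1: aGCUCGACucaugguuugaacc
miR-434-3p: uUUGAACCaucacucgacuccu

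The other arms with more than a few reads were as follows, with the shifted starts of miR-431-3p.
miR-431-5p: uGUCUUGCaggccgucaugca
miR-431-3p: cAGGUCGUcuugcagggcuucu
miR-431-3p-2: uGCAGGUCgucuugcagggcuu
miR-431-3p-3: uUGCAGGUcgucuugcagggcu
miR-433-3p: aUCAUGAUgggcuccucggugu
miR-337-5p: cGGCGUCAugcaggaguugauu
miR-540-3p: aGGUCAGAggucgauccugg
miR-665-3p: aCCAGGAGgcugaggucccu
miR-370-3p: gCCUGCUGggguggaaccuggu

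The 20 RefSeq arms of the 10 members had 20 distinct seeds, so the members form a group by position and not a seed family. Among the 1738 mouse mature miRNAs of the RefSeq table, a seed was shared with a miRNA outside the 10 members by 2 of the 20 arms: miR-540-3p had the seed of miR-6915-5p, and miR-370-5p that of miR-1193-3p. Among the 19 arms with at least 10 reads in every library, the most abundant start began with U in 7, A in 5, C in 4 and G in 3.

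The sites opposite Rtl1 were placed on its mRNA of 6358 nt (GENCODE, GRCm38 transcript positions), which has 2 exons and its coding sequence from base 148 to base 5382. All 5 complementary hairpins fell within the coding sequence, in exon 2, in the order Mir136 (163 to 224), Mir434 (952 to 1045), Mir127 (2636 to 2705), Mir433 (3713 to 3836) and Mir431 (5014 to 5104), the reverse of their order along the chromosome. The sites of the most abundant arm and of the arm whose main start lay upstream of the RefSeq start are shown 5′ to 3′ on the mRNA, with the bases opposite the RefSeq seed in capitals.
Rtl1 site of miR-127-3p, mRNA bases 2642 to 2663: agccaagctcagacGGATCCGa
Rtl1 site of miR-136-3p, mRNA bases 164 to 185: aagactcatttgagACGATGAt

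The libraries held 9269795, 10816006 and 10218743 mapped reads in replicates 1, 2 and 3, and levels are given as reads per 1000000 mapped reads (RPM). For scale, the hairpin of miR-375, the leading beta cell miRNA, gave 345184 to 383022 RPM. The beta cell marker miR-182 and the miR-7 hairpins Mir7-1 and Mir7-2 gave 37166 ± 2203, 260 ± 25.7 and 384 ± 28.1 RPM (SD, n = 3). Both miR-7 hairpins yield miR-7a-5p, and reads that fitted several loci had been divided among them. Markers of other lineages could not be placed by sequence, so the identity of the cells was not tested. A level in RPM is a share of the library, so fewer cells that make a miRNA and less of it per cell cannot be told apart. The 3 libraries differed by more than sampling of reads would give, with a chi-square per degree of freedom of 33.9 to 86.5 over 2069 groups of starts, and the SD over libraries is the error used throughout. Reads carried no molecular identifiers, so the limits given for counts cover counting error only.

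The 10 members took 3.35%, 2.93% and 2.75% of all mapped reads in replicates 1, 2 and 3, or 33480, 29252 and 27497 RPM (30076 ± 3075, SD, n = 3). Almost all of this was miR-127-3p, the 3p arm of Mir127 at chr12:110831098-110831119, which gave 30315, 26364 and 24638 RPM (27105 ± 2910, SD, n = 3) and ranked 5 among all 5′ starts in every library. It held 90.5%, 90.1% and 89.6% of member reads. Replicate 1 was the highest library for miR-127-3p and replicate 3 the lowest, at 1.23 times between them. The other arms did not all follow that order: the ratio of replicate 1 to replicate 3 was 0.877 for miR-540-3p and 0.982 for miR-337-5p, against a median of 1.11 (quartiles 1.05 and 1.19) over 273 arms of all hairpins placed by sequence. The variation of the 13 member arms with at least 100 reads in every library was close to that of these 273 arms, with median coefficients of variation of 8.94% and 7.71%.

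Without miR-127-3p the members gave 2971 ± 169 RPM (SD, n = 3), and miR-434-3p, from the hairpin next to Mir127, came first among them. It was read at 1168, 1072 and 1067 RPM in replicates 1, 2 and 3, and miR-127-3p was 24.5 ± 1.43 times as abundant (SD, n = 3). The following arms were miR-434-5p at 499, 467 and 429 RPM, miR-136-3p at 431, 364 and 380 RPM, and miR-431-5p at 372, 317 and 316 RPM. Their order was the same in each library, although miR-136-3p overlapped in range over the libraries with both miR-434-5p and miR-431-5p. Below them the ranges were separate: miR-540-3p gave 185 ± 12.8 RPM, miR-337-5p 138 ± 4.54, miR-136-5p 110 ± 3.50, miR-433-3p 89.2 ± 7.73, miR-370-3p 49.1 ± 4.96, miR-127-5p 40.3 ± 4.83, miR-431-3p 25.4 ± 3.50 and miR-665-3p 11.1 ± 1.70 (SD, n = 3). The remaining arms, miR-337-3p, miR-493-5p, miR-433-5p, miR-540-5p, miR-370-5p and miR-493-3p, lay between 5.07 and 1.67 RPM, and each overlapped its neighbour. The level of miR-370-5p leaves out 18, 19 and 14 reads at its RefSeq start, which lay 4 bases from its most abundant start, so its place in this order is uncertain. miR-665-5p had 3, 0 and 1 reads. The 20 arms thus made 18 neighbouring pairs among the 19 arms with at least 10 reads in every library, and 7 of the pairs overlapped in range.

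**Figure D1:**
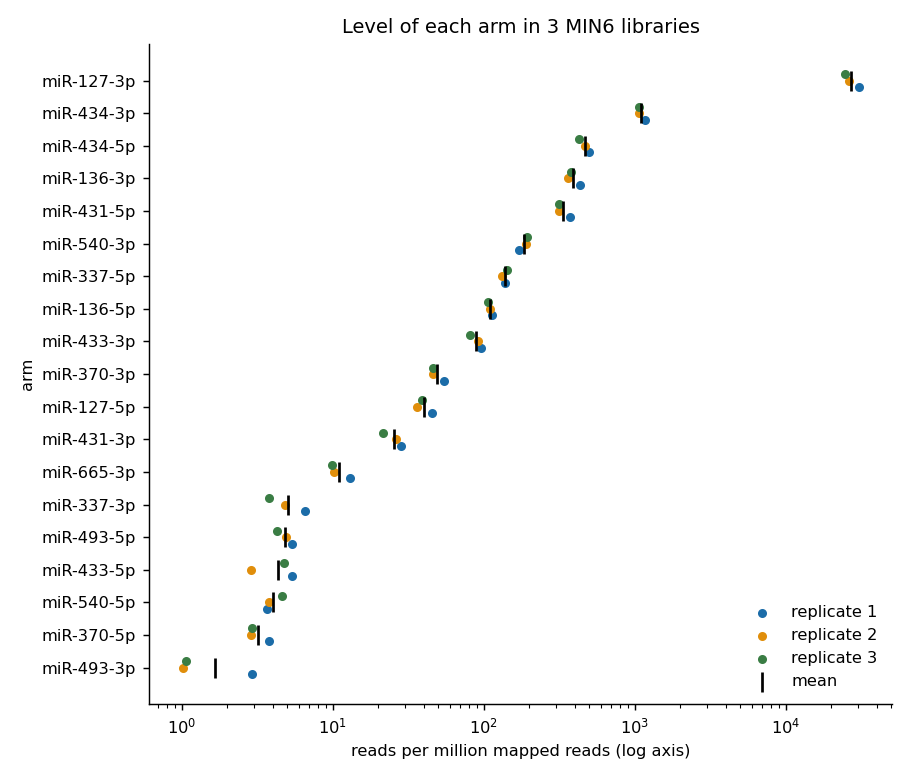
Level of each member arm in each of the 3 MIN6 libraries, in RPM on a log10 axis, with a coloured point per library and a black bar at the mean. miR-665-5p, with at most 3 reads, is not drawn. miR-127-3p stands at 24638 to 30315 RPM, above miR-434-3p at 1067 to 1168 RPM, and the arms below miR-665-3p lie under 10 RPM.

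The members complementary to Rtl1 were the abundant ones. The 5 complementary hairpins summed to 33077, 28852 and 27086 RPM in replicates 1, 2 and 3, and the 5 others to 403, 399.6 and 411 RPM, a ratio of 73.4 ± 8.19 (SD, n = 3). Mir127 made up most of that ratio, which was 6.24 ± 0.453 without it. The sum of the other 5 hairpins differed little between libraries (404 ± 5.85 RPM), and replicate 1, highest for the complementary group, was not highest for this sum. That rested on Mir540, at 174.5, 194.6 and 199.4 RPM in replicates 1, 2 and 3. Mir493, Mir665 and Mir370 were each highest in replicate 1, as was Mir337 by a small margin (145.6 RPM against 145.4 RPM in replicate 3). The complementary group was not uniformly above the rest: Mir433, at 93.7 ± 7.80 RPM per hairpin, lay below Mir540 at 189.5 ± 13.2 RPM and Mir337 at 143 ± 4.59 RPM, with no overlap of range.

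Position along the interval did not order the levels. From Mir493 to Mir370 the members spanned 38104 nt, and the 5 complementary hairpins, Mir431 to Mir136, occupied 4942 nt of it. Within that stretch the summed level per hairpin was 361 ± 35.04 RPM for Mir431, 93.7 ± 7.80 for Mir433, 27147 ± 2915 for Mir127, 1568 ± 89.0 for Mir434 and 502 ± 37.9 for Mir136 (SD, n = 3). Mir127 thus lay between Mir433, the lowest of the 5, and Mir434. At the ends of the interval, Mir493 gave 6.61 ± 1.62 RPM and Mir370 54.0 ± 5.65 RPM. Mir432, which also lies opposite the Rtl1 coding sequence (mRNA bases 521 to 595) between Mir434 and Mir136, had 0 reads in all 3 libraries, which allows up to 0.324, 0.277 and 0.294 RPM. The Mir379 to Mir410 cluster, the large miRNA cluster downstream in the same imprinted region, summed to 10566 ± 531 RPM over 35 hairpins, and the members gave 2.84 ± 0.151 times as much. Without miR-127-3p the members gave 0.281 ± 0.00635 of the cluster (SD, n = 3), a ratio that hardly moved between libraries.

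**Figure D2:**
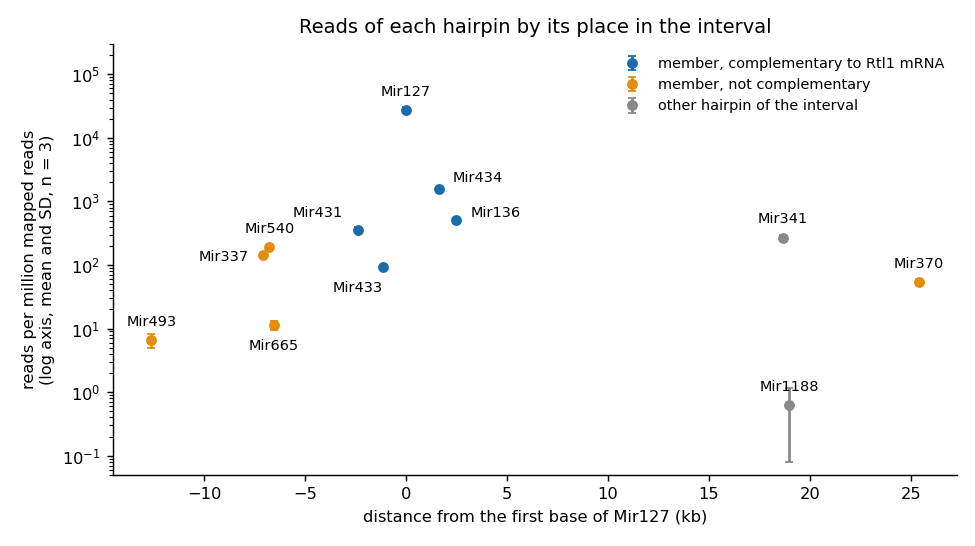
Summed level of each hairpin of the interval, in RPM on a log10 axis, against its distance in kb from the first base of Mir127, with points at the mean and bars of 1 SD over 3 libraries. The 5 member hairpins complementary to Rtl1, in blue, stand together within 4942 nt and include the highest, Mir127. Mir3070a, Mir3070b and Mir432 lay under 0.1 RPM on average and are not drawn, although Mir432 is also complementary to Rtl1.

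The arm that dominated differed from hairpin to hairpin. miR-127 was the most one-sided, with a 3p to 5p ratio of 674 ± 45.7 (SD, n = 3). miR-540 followed at 46.4 ± 4.001, then miR-433 at 22.1 ± 8.45 and miR-370 at 15.5 ± 0.850. The miR-433 5p arm had only 50, 31 and 49 reads, and its ratio was 17.7, 31.9 and 16.8 by library. The miR-370 5p arm had 35, 31 and 30 reads, counted within 3 nt of a start 4 bases upstream of the RefSeq start. The 18, 19 and 14 reads at the RefSeq start itself were left out, and with them the ratio would be lower. In miR-136 and miR-434 both arms were present at similar orders of magnitude, with 3p to 5p ratios of 3.55 ± 0.229 and 2.37 ± 0.1002. The 5p arm dominated in 3 hairpins: the 5p to 3p ratio was 28.6 ± 8.03 for miR-337, 13.3 ± 1.31 for miR-431 and 3.56 ± 1.53 for miR-493 (SD, n = 3). For miR-493 the ratio rested on 27, 11 and 11 reads of the 3p arm. No ratio is given for miR-665, whose 5p arm had at most 3 reads. Among the 5 complementary hairpins, then, 4 favoured the 3p arm and Mir431 favoured the 5p arm.

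The 5′ end of each arm was examined next, because it sets the seed. Of the 13 member arms with at least 100 reads in every library, 6 had a second start that held at least 10% of the arm's reads in every library: miR-127-5p, miR-136-3p, miR-136-5p, miR-431-3p, miR-434-5p and miR-665-3p. Over all named arms this count was 67 of 273, or 24.5%, against 46.2% of the member arms. Over all groups of starts with at least 100 reads in every library, whether named or not, it was 1327 of 2069, or 64.1%. The most abundant start differed from the RefSeq start in 2 of the 13, miR-136-3p and miR-127-5p, or 15.4%, against 12% of the named arms (30 of 250). The members' share with a second start thus lay between that of named arms and that of all groups of starts, and is no result about the members. The count also depended on the threshold: at a second start of at least 20% the count was 3.

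miR-136-3p-1 was the most abundant product of its arm. It had 3433, 3314 and 3314 reads in replicates 1, 2 and 3, and the 5′-reference miR-136-3p had 427, 449 and 427 reads, a ratio of 7.73 ± 0.331 (SD, n = 3). Every library had the shifted start well above the reference start. The shift adds a C at the 5′ end and moves the seed by 1 base, from the reference seed to that of miR-136-3p-1 in the list above. A start 1 base downstream, miR-136-3p+1, was also present at 0.241 ± 0.0210 of the reference, and miR-136-3p+2 at 0.0819 ± 0.0152. The 5p arm of the same hairpin kept its reference start as the main form, with miR-136-5p-3 at 0.228 ± 0.0279 of it from 203, 199 and 178 reads.

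miR-127-3p had an almost fixed 5′ end. Its reference start had 278645, 282915 and 249598 reads, and miR-127-3p-1 had 1876, 1784 and 1703, a ratio of 0.00662 ± 0.000276 (SD, n = 3). Counted on perfectly matching reads alone, the ratio was 0.00204. In absolute level, miR-127-3p-1 gave 178 ± 21.1 RPM and ranked between 238 and 307 among all 5′ starts. That level is close to the whole of miR-540-3p and above every arm of Mir433 and Mir370. The starts miR-127-3p+1 and miR-127-3p-2 followed at 0.00119 ± 0.000149 and 0.000452 ± 3.1e-05 of the reference. The opposite arm was less fixed: miR-127-5p+2, with 233, 211 and 215 reads, exceeded the RefSeq start, with 169, 163 and 157, by 1.35 ± 0.0462 times (SD, n = 3). Each library had miR-127-5p+2 as the higher form.

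Among the other arms, miR-434-5p had the most reads at a shifted start after miR-136-3p and miR-127-3p. miR-434-5p-1 had 1214, 1329 and 1180 reads against 3395, 3706 and 3194 at the reference start, a ratio of 0.362 ± 0.00660 (SD, n = 3). The 3p arm of the same hairpin was less mixed, with miR-434-3p-1 at 0.0224 ± 0.000203. miR-431-3p was divided over 3 starts: miR-431-3p-2 had 92, 81 and 76 reads, miR-431-3p-3 had 88, 94 and 62, and the reference start 81, 108 and 82. Its ratios were 0.938 ± 0.193 and 0.904 ± 0.168 (SD, n = 3), and the order of the 3 starts changed from library to library, so no main start was resolved. miR-665-3p+1 held 0.286 ± 0.0767 of its reference. miR-433-3p+1, at 0.106 ± 0.00497 of its reference, lay just below the 10% threshold with 9.55% of the arm. In low arms, miR-337-3p-1 had 42, 38 and 25 reads against 15, 13 and 9 at the reference, and miR-370-5p-4 had 27, 27 and 25 against 18, 19 and 14. The shifted starts listed here shared their seeds with no mature miRNA of the RefSeq table.

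**Figure D3:**
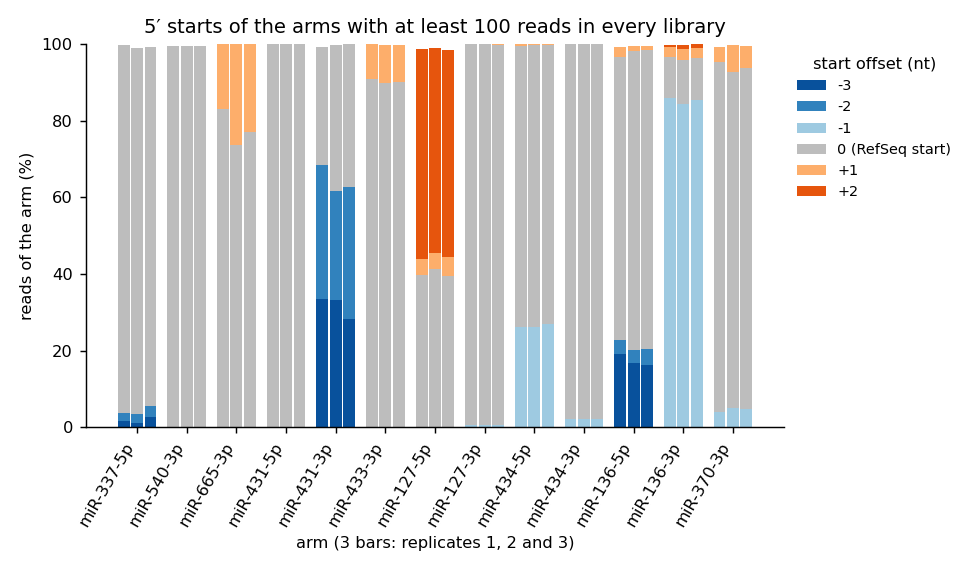
Share of each arm's reads, in percent, at each 5′ start, coloured by its offset in nt from the RefSeq start, for the 13 member arms with at least 100 reads in every library, with a stacked bar for each of replicates 1, 2 and 3. Most of miR-136-3p lies 1 base upstream of its RefSeq start and most of miR-127-5p 2 bases downstream, miR-431-3p is spread over 3 starts, and miR-127-3p is almost entirely at the RefSeq start. Starts with fewer than 10 reads in a library are not drawn.

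The 3′ ends of the members differed in length and in added bases. A mismatching last base means that the last base of a read differs from the genome, as after the addition of a base without a template or an error of sequencing. Over the 13 arms it was at least 10% in every library in 4: miR-127-3p, miR-433-3p, miR-540-3p and miR-665-3p, or 30.8%. Over all named arms the same held for 111 of 273, or 40.7%, with a median of 8.07% (quartiles 2.66% and 19.2%), and over all groups of starts for 323 of 2069, or 15.6%. The members' share lay between these values.

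miR-127-3p was mostly 22 nt long, the RefSeq length, in 56.1% of the reads at its reference start, with 13.0% at 21 nt, 12.3% at 23 nt, 8.01% at 24 nt and 6.33% at 20 nt. Its last base mismatched in 23.5%, 23.2% and 23.6% of reads (23.4 ± 0.215%, SD, n = 3), most often as U (19.2%) and less often as A (3.58%), and 4.06% ended in UU without a match for either base. The reads are shown to make the added bases visible, with each base that differs from the genome in capitals.
miR-127-3p, 53.3% of reads at this start: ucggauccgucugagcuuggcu
miR-127-3p with G23U, 9.99%: ucggauccgucugagcuuggcuU
miR-127-3p with G23U and G24U, 3.89%: ucggauccgucugagcuuggcuUU
miR-127-3p with G23A and G24U, 2.63%: ucggauccgucugagcuuggcuAU
In these tokens the first letter is the base of the genome, the number the position from the 5′ end of the read, and the last letter the base read.

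miR-127-3p-1 had a different 3′ end from the reference start of the same arm. Its last base mismatched in 58.0%, 54.7% and 56.8% of reads (56.5 ± 1.70%, SD, n = 3), with no overlap with the reference start, and the mismatching base was U in 48.7% and A in 7.16%. Its last matching base lay 2 bases short of the RefSeq 3′ end in 76.2% of reads. The 3 commonest of its reads whose mismatches all lay beyond that end were the following, and the first was the commonest read at this start. The second ends in a base that matches at the RefSeq 3′ end, so it is not among those 76.2%.
miR-127-3p-1 with C22U, 39.7 ± 2.44% of reads at this start: aucggauccgucugagcuuggU
miR-127-3p-1 with C22U and a matching last U, 12.7 ± 0.996%: aucggauccgucugagcuuggUu
miR-127-3p-1 with C22U and U23A, 3.33 ± 0.328%: aucggauccgucugagcuuggUA
At the same genome base, a C, a U was read in 87.1%, 88.0% and 86.6% of the miR-127-3p-1 reads that reached it (1475, 1380 and 1321 reads, 87.2 ± 0.738%). At the reference start the corresponding C21U was 1.48 ± 0.0398% of 260651, 264525 and 232759 reads. In miR-127-3p+1 it was C20U at 1.22 ± 0.590%, and in miR-127-3p-2 it was C23U at 75.4 ± 8.98%, from only 8, 13 and 18 reads. Most miR-127-3p-2 reads ended before this base, so the U was in 7.89 ± 2.53% of all its reads, against 67.9 ± 0.657% of all miR-127-3p-1 reads.

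All reads of the miR-127-3p arm aligned to a single locus. The difference was also present among reads with the same last matching base. Of the reads whose match ended 2 bases short of the RefSeq end, a single U followed in 60.8 ± 1.10% at miR-127-3p-1 and in 9.53 ± 0.312% at the reference start, a ratio of 6.38 ± 0.103 (SD, n = 3). No base followed in 27.8% and 85.9% of these reads. With the added U, the commonest miR-127-3p-1 read was 22 nt long, as was the commonest read of the reference start. miR-127-3p-2 also ended mostly at that place: 95.9% of its reads had their last matching base 2 bases short of the RefSeq end, and 88.8% were 22 nt long. Of the reads ending there, however, a single U followed in only 5.14 ± 1.77% and no base in 91.7%. Among reads with this end, an added U was thus frequent at miR-127-3p-1 and not at miR-127-3p-2. In the few miR-127-3p-2 reads that reached the next base, U was still the usual base (75.4 ± 8.98%).

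miR-136-3p-1 was the contrasting case of a shifted start. Its last base mismatched in 0.785 ± 0.0306% of reads, and 94.99% of reads were 22 nt long. The reference start of miR-136-3p was more mixed, at 53.3% of 21 nt and 33.8% of 22 nt. The commonest miR-136-3p-1 read and the commonest miR-136-3p read ended at the same base, 1 short of the RefSeq end.
miR-136-3p-1, 91.7 ± 0.775% of reads at this start: caucaucgucucaaaugagucu
miR-136-3p, 41.9 ± 5.08% of reads at this start: aucaucgucucaaaugagucu

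The remaining arms ended as follows. miR-434-3p was 22 nt in 67.6% of reads, with a separate class of 19 nt at 16.1% and 21 nt at 14.3%, and its last base rarely mismatched (1.19 ± 0.155%). In miR-434-3p-1 the class that ends at the same base as the 19 nt class led, with 69.9% of reads at 20 nt. miR-434-5p was 21 nt in 72.3% of reads and miR-136-5p 21 nt in 87.7%. miR-431-5p was 20 nt in 71.2%, 1 base shorter than the RefSeq entry. miR-540-3p was 22 nt in 84.8% of reads, 2 bases longer than the RefSeq entry, and carried an added U as follows in 6.09 ± 0.346%.
miR-540-3p with C23U: aggucagaggucgauccugggcU
miR-665-3p had no main length, with 26.9% of reads at 22 nt, 21.3% at 20 nt, 17.8% at 24 nt, 13.0% at 23 nt and 12.4% at 21 nt. Its last base mismatched in 32.0 ± 1.68% over the whole arm. miR-433-3p differed from the other arms in its mismatching last base. Of all reads at its reference start, 5.47% ended in a mismatching A, 5.11% in U and 4.02 ± 0.480% in G. In miR-370-3p the mismatching last base was most often A, at 9.91%.

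**Figure D4:**
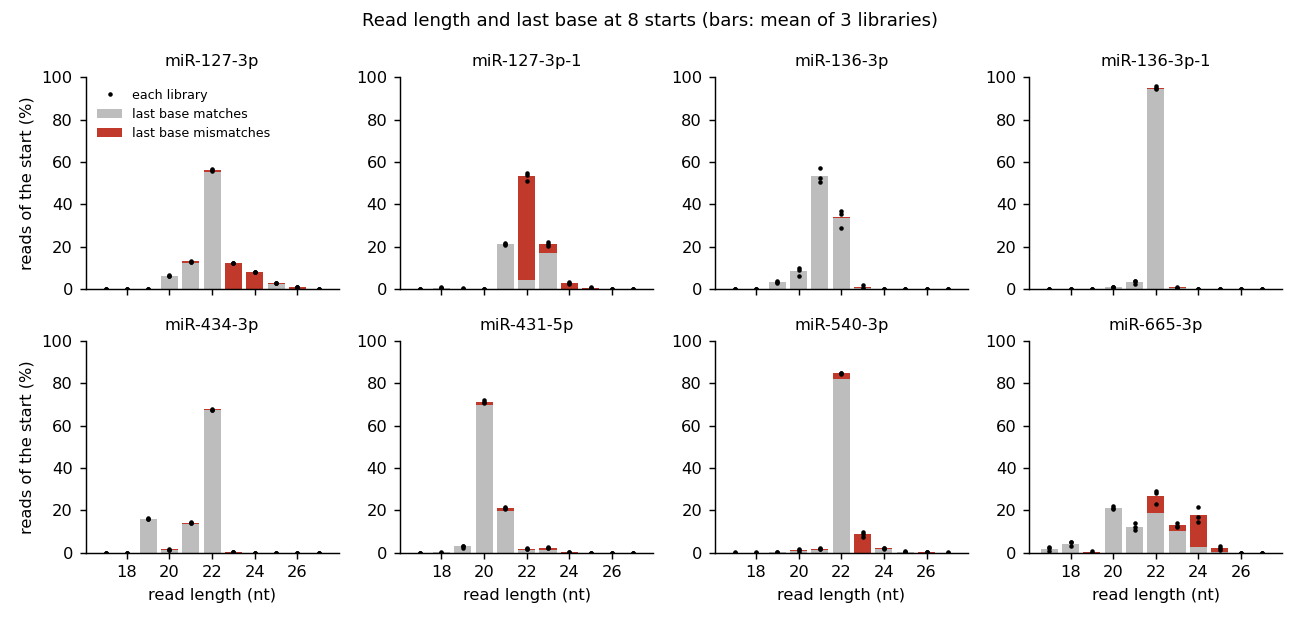
Read length in nt against percent of the reads at a single 5′ start, for 8 starts, with bars at the mean of 3 libraries divided into reads whose last base matches the genome (grey) and does not (red), and black points for the total of each library. At miR-127-3p the 23 and 24 nt classes are almost all mismatching, at miR-127-3p-1 most of the 22 nt class is, and at miR-136-3p-1 almost no read is.

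Mismatches inside the reads, away from the 3′ end, were concentrated at certain positions of the read. Over the members, a genomic A was read as C in 18.4 ± 0.140% of reads at position 12, 14.2% at position 10, 8.34% at position 6 and 7.26% at position 11, but in 0.0144% at position 13. The other placed hairpins gave 16.4 ± 0.0444%, 11.9%, 10.2% and 7.80% at the same positions and 0.0274% at position 13. The pattern was therefore not particular to the members. miR-434-3p, with A at positions 6, 9, 12 and 17, carried A12C in 18.7%, 18.3% and 18.2% of reads and A6C in 7.07 ± 0.465%, so that its second most common read was a substituted one.
miR-434-3p with A12C, 12.4 ± 0.117% of reads at this start: uuugaaccaucCcucgacuccu
The reference start of miR-136-3p gave A12C in 18.7 ± 1.19% of reads, shown in the read below. The same genomic A is base 13 of miR-136-3p-1, where mismatches inside the read were 2.65 ± 0.779% in all.
miR-136-3p with A12C, 9.69 ± 1.09% of reads at this start: aucaucgucucCaaugagucu
miR-127-3p-1 showed the reverse: its A6C was 10.8 ± 0.488%, whereas the reference start, in which that A is base 5, had mismatches inside the read in 3.24 ± 0.135% of reads altogether. The median over 388 starts with at least 1000 reads in every library was 14.6% (quartiles 3.44% and 24.9%).

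**Figure D5:**
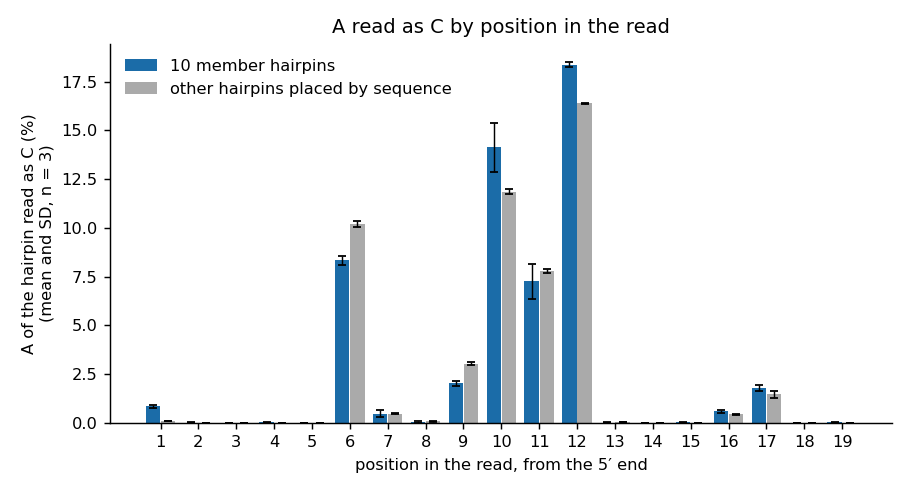
Percent of reads in which a genomic A was read as C, by position from the 5′ end of the read, for the member hairpins and for the other hairpins placed by sequence, with bars at the mean of 3 libraries and whiskers of 1 SD. Both sets have their highest value at position 12, at 18.4% and 16.4%, and lie near 0 at position 13.

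Mismatches inside the reads and at their 3′ ends both bear on any level taken from perfectly matching reads alone. In the miR-127-3p arm 23.7% of reads had a mismatching last base, and at its reference start 3.24% had a mismatch inside the read. For miR-434-3p these shares were 1.26% and 31.0%. Counted on such reads, the level of miR-434-3p was 67.8% of that reported here, miR-127-3p 71.3% and miR-136-3p 93.2%, and over the 19 arms the share ran from 54.9% for miR-493-3p to 95.4% for miR-433-5p.

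Reads on the opposite strand of the interval were almost absent. After division of multi-locus reads over their loci, the minus strand had 0.178, 1.40 and 1.73 reads in replicates 1, 2 and 3, against 314476, 320372 and 284632 on the plus strand. Of these, 0, 1 and 0 reads had a single locus. Longer Rtl1 mRNA was not measured by these libraries.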

How the data were processed

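Small RNA of 3 MIN6 libraries was sequenced after Illumina TruSeq small RNA preparation. The authors trimmed adapters with cutadapt, aligned reads to mm9 with Bowtie without mismatch, and aligned the remaining reads with mismatches allowed in windows around those loci. The deposited values are expected counts per alignment: the number of identical reads, divided by the authors over loci where a read fitted several, each with its strand and mismatching bases. Reads were 14 to 41 nt long. Alignments without mismatch were deposited with an end 1 base early, and 1 base was added here.

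Here the counts were summed by 5′ start, length, last base and substitution in Python 3.11.15 (pandas 2.3.3, numpy 2.4.6) and divided by all mapped reads of the library (9269795 to 10816006) as RPM. The deposited counts include fractions and were not rounded. An arm comprised the starts within 3 nt of its most abundant start. Calls used arms with at least 100 reads in every library, a second start of at least 10%, and mismatching last bases of at least 10%. Mismatches inside a read were those more than 3 bases from its 3′ end.

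The reference at hand was GRCm38, so coordinates are those of the deposited alignments in mm9, and hairpins were placed by matching the mismatch strings, which spell the genome's disagreement with each read, to RefSeq hairpins (GRCm38.p6). Of 1005 hairpins searched, 177 reached 20 bits of evidence, and 0 of the reversed sequences did. Of the 10 members 8 were named in this way, and Mir493 and Mir665 were placed by their RefSeq distance to Mir127. The 9 hairpins of the interval named by sequence, with Mir127 as the origin of the distances among them, lay at distances equal to RefSeq. Over the members, 0 of 378738 mismatching bases equalled the hairpin base. Placement by sequence fixed this in advance for the 8 members named in this way, so it is no check of them. For Mir493 and Mir665, placed by distance, it was 0 of 79 and 0 of 160 bases.

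All libraries belong to 1 group, and levels are means with SD over 3 libraries, without a test. Precision is set by the read counts printed, and a count of 0 allows up to 3 reads. The scripts were tested on simulated data. All 10 members were described, arms with at least 10 reads in every library by value and the rest by name, and shifted starts where they held at least 10% of an arm, with miR-127-3p-1, miR-136-3p-1 and further starts of the same arms chosen after their values were seen. The members and lists were chosen with earlier results of these data known. Alternatives were perfectly matching reads, single-locus reads, other read lengths, denominators, distances between starts, thresholds and definitions of the 3′ mismatch, and leaving out each library. Marker miRNAs of other lineages, whose hairpins were not placed by sequence, were not analysed here.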

Additional observations from a re-analysis of the deposited data

How the results depend on the processing

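Of 641 values recomputed under an alternative for 81 results, 488 stayed within 1 SD over libraries (for a count, within 1.5 times), 152 moved by more, and 1 crossed 1: the ratio of miR-431-3p-2 to its reference start ran from 0.838 without replicate 1 to 1.03 without replicate 2. The 641 values included 219 that left out a library. Leaving out 1 of 3 libraries cannot move a mean by more than 1 SD, so for means this outcome was fixed in advance. Single-locus reads, 16 to 27 nt and 18 to 25 nt moved none of the values recomputed under them. With perfectly matching reads alone, the group fell to 21609 RPM and miR-127-3p to 19331 RPM, its share of member reads was 89.4%, and the ratios were 0.00204 for miR-127-3p-1 and 9.74 for miR-136-3p-1. This setting kept 22.1% of miR-127-3p-1 reads and 71.7% of the reads at the reference start. A mismatching last base was found in 56.5% of miR-127-3p-1 reads. Divided by perfectly matching reads of the library, the group was 42034 RPM and miR-127-3p 37882 RPM, and with miR-375 left out of the denominator 47349 and 42667 RPM. The most abundant start alone gave a share of 89.3% for miR-127-3p. The count of arms with a second start, 6, became 3 at a threshold of 20%, with starts within 1 nt, or with at least 1000 reads per arm, which leaves fewer arms. The mismatching 3′ end of the miR-127-3p arm, 23.7% of reads, was 26.98% over the last 2 bases, 27.1% over the last 3 bases and 23.4% at the most abundant start. Leaving out a library gave 28374 to 31366 RPM for the group, 25501 to 28339 RPM for miR-127-3p, 7.57 to 7.90 for miR-136-3p-1 and 0.00652 to 0.00678 for miR-127-3p-1, and the count of second starts was 6 each time. No paired analysis was possible because the 3 libraries form a single group. Depth limited miR-493, miR-665-5p, miR-433-5p, miR-540-5p and miR-370-5p, with at most 53 reads per arm and library.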

Other observations

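Reads of the interval outside the members were few. Mir341, a hairpin that is not opposite Rtl1, gave 304, 245 and 253 RPM in replicates 1, 2 and 3, more than any member hairpin outside Mir431, Mir127, Mir434 and Mir136. Its 3p arm was read from separate groups of starts, of which the smaller lay 4 bases downstream of the RefSeq start with 394, 364 and 355 reads. Mir1188 gave 0.971, 0 and 0.881 RPM. Outside every hairpin, 1 group of starts had at least 100 reads in every library. Its most abundant start was chr12:110842028 (mm9), and the group gave 130, 112 and 94.4 RPM in replicates 1, 2 and 3. Its most common length was 18 nt (49.0% of reads), shorter than any member arm, and 6.21% of its reads had a single locus.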
